A study of Mus musculus with 69 samples.

Results

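The RNA levels of 9 non-clustered protocadherin genes, Pcdh1, Pcdh7, Pcdh9, Pcdh10, Pcdh11x, Pcdh17, Pcdh18, Pcdh19 and Pcdh20, were followed in cultured murine vascular smooth muscle cells (VSMC) and endothelial cells (EC) exposed to stressors that accompany obesity. These are 9 of the 56953 genes in the count tables, and their rows were found by the Ensembl identifiers that carry these symbols. The set was chosen by the measured fold changes of Pcdh10 and Pcdh11x in wildtype VSMC exposed to the combined stressors, and the other 7 were added as members of the same family. The comparison of the combined stressors with Control in wildtype VSMC is therefore described here without a test.

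The series holds 69 poly(A) RNA-Seq libraries from cells of male C57BL/6 mice, and asks how metabolic and humoral stressors act on vascular cells with and without the epidermal growth factor receptor (EGFR). There were 16 libraries of wildtype VSMC (WT VSMC) and 38 of heart EC, all of them labelled wildtype. Another 15 were of VSMC in which floxed Egfr (EGFR flox/flox) was deleted by a Cre recombinase driven by the SM22 promoter (KO VSMC). VSMC came from thoracic and abdominal aorta and EC were taken from hearts with beads as CD45-/CD31+ cells. VSMC were kept without serum before treatment. The conditions, each lasting 24 h, were Control, metabolic stressors (HG + FFA, 20 mM glucose and free fatty acids, given as 100 µM in the sample labels and as 100 µM each of oleate and palmitate in the methods), humoral stressors (AII + NA, 30 nM angiotensin II and 300 nM of a second hormone named epinephrine in the sample labels and norepinephrine in the methods of the study) and both kinds together (ALL). Mouse age was not given. The 4 libraries of a set came from cells of 1 animal and passage treated side by side. WT VSMC form sets 1 to 4, KO VSMC sets 5 to 8 and EC sets 9 to 18, and sets 17 and 18 came from the same animal, so that the 10 EC sets stand for 9 animals. EC sets 15 and 16, labelled wildtype like all EC, came from animals that also gave KO VSMC. EC sets 9 and 10 came from animals that also gave WT VSMC. Not analysed here were 3 libraries, namely ALL in KO set 5, Control in EC set 10 and AII + NA in EC set 15.

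Protocadherins are single-pass membrane proteins of the cadherin superfamily. Their extracellular cadherin repeats bind calcium and hold neighboring cells together, mostly by pairing with the same protocadherin on the next cell, and they are best known from the developing nervous system, where they guide axons and sort cells into layers. The non-clustered genes are spread over several chromosomes, in contrast to the Pcdha, Pcdhb and Pcdhg clusters. Pcdh1, Pcdh7, Pcdh9 and Pcdh11x form the δ1 group, whose tails carry a motif that binds protein phosphatase 1. Pcdh10, Pcdh17, Pcdh18 and Pcdh19 form the δ2 group, whose tails can recruit the WAVE complex, a regulator of actin branching. Pcdh20 stands apart from both groups.

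The libraries held between 17166133 and 43240489 counts, so that 1 count corresponded to 0.0241 to 0.0620 FPM (the unit used throughout, counts scaled to a library size of 1000000 after TMM normalization within a cell type). A library with no count of a gene allows a level of up to 3 counts, or 0.0721 to 0.186 FPM, and this limit covers counting error only. KO set 5 stood apart from its label. Its mean Egfr level was 35.8 FPM, against 0.940 to 1.81 FPM in KO sets 6 to 8 and 234 to 408 FPM in WT VSMC, and results for KO VSMC are therefore given with and without it. Of the 7 smooth muscle markers, Acta2 was abundant in WT VSMC (210 to 1784 FPM), while Tagln (1.57 to 6.22 FPM) and Myh11 (2.90 to 12.8 FPM) were low. Smtn held 33.9 to 87.9 FPM, Lmod1 23.2 to 80.9 FPM, Cnn1 4.96 to 63.5 FPM and Actg2 0.490 to 13.9 FPM. The sum of the 7 ranged from 328 to 2013 FPM in WT VSMC, from 687 to 3637 FPM in KO VSMC and from 205 to 3983 FPM in EC. The sum of 8 endothelial markers, none of which was at 0 in all EC libraries, ranged from 54.8 to 5097 FPM in EC, and the lower end lay within the 2.39 to 68.6 FPM of WT VSMC. The sum of 6 fibroblast markers ranged from 3734 to 10730 FPM in WT VSMC and from 453 to 11290 FPM in EC. In such bulk RNA, fewer cells of a type and less RNA per cell cannot be told apart.

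Promoters are shown for Pcdh10 and Pcdh9, the members called after HG + FFA for which a RefSeq promoter was at hand. No RefSeq promoter was used for Pcdh11x or Pcdh1. The 250 bases before the RefSeq start of each gene (GRCm38.p6 table) were placed on GRCm39 by an exact match, and the bases outside the annotated gene are printed 5′ to 3′ on the coding strand. Capitals mark matches to the GC box GGGCGG and to CCAAT on either strand. The Pcdh10 stretch is chr3:45332583-45332832 on the plus strand and the Pcdh9 stretch is chr14:94128153-94128365 on the minus strand.
Pcdh10 promoter: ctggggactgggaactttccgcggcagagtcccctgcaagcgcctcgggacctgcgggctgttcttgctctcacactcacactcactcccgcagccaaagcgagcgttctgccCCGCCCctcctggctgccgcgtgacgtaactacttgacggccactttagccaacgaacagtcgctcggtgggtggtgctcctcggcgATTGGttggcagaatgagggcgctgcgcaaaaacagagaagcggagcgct
Pcdh9 promoter: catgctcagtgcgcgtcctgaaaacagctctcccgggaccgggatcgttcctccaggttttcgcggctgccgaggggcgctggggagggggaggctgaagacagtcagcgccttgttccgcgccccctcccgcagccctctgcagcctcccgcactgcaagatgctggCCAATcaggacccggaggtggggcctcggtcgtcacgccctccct
Both promoters were rich in CpG sites, which was not particular to the called members. Of the members not called after HG + FFA, Pcdh18 held 23 sites, Pcdh17 21, Pcdh19 16, Pcdh7 7 and Pcdh20 3. The Pcdh10 stretch held 22 CpG sites at 63.2% GC, and 14.6% of 27025 mouse promoters of the same length held as many. The 250 bases before Pcdh9 held 18 CpG sites at 63.6% GC, reached by 21.6% of promoters, whereas the promoter median was 6 CpG sites and 52.0% GC. The CCAAT letters lay at -50 to -46 before the Pcdh10 start (reverse strand) and at -82 to -78 before the Pcdh9 start (forward strand), and 34.5% of all promoters hold them. This motif was added to the search after the sequences had been seen. Pcdh10 also held 1 GC box at -137 to -132 (reverse strand), as do 32.9% of promoters. Of the other members, Pcdh17, Pcdh18 and Pcdh19 held both motifs, Pcdh20 held CCAAT, and Pcdh7 held neither. No match in the 7 members' promoters was found for the cAMP response element TGACGTCA (1.62% of promoters), the E-box CACGTG (6.05%), the direct repeat 1 element (0.037%), TATAAA (13%), the serum response core (0.074%) or the AP-1 site TGAGTCA (4.43%), which says only that these letters are not in these windows.

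Without stressors, Pcdh7 was the most abundant member in each of the 3 cell types. Levels between genes were compared per length, as FPKM (FPM per kilobase of annotated exon). In WT VSMC Control, Pcdh7 reached 7.28 ± 1.59 FPKM (SD, n = 4), followed by Pcdh19 with 3.02 ± 1.61, Pcdh18 with 2.60 ± 0.257, Pcdh9 with 1.82 ± 0.413 and Pcdh1 with 1.16 ± 0.889 FPKM. Pcdh20 (0.192 ± 0.0294 FPKM), Pcdh11x (0.187 ± 0.126 FPKM), Pcdh10 (0.0599 ± 0.0154 FPKM) and Pcdh17 (0.0529 ± 0.0419 FPKM) came last. Among neighbors in this order, the libraries did not overlap between Pcdh7 and Pcdh19, Pcdh18 and Pcdh9, Pcdh1 and Pcdh20, and Pcdh11x and Pcdh10, and overlapped for the other pairs. In KO VSMC Control the order began with Pcdh7 (5.77 ± 1.35 FPKM, n = 4), Pcdh18 (2.62 FPKM) and Pcdh19 (2.06 FPKM) and ended with Pcdh11x (0.0329 FPKM), Pcdh17 (0.0230 FPKM) and Pcdh10 (0.0101 FPKM). In EC Control, with 9 libraries of 8 animals since sets 17 and 18 share an animal, Pcdh7 (10.1 ± 3.24 FPKM, SD over libraries) was followed by Pcdh18 (5.56 ± 5.20), Pcdh9 (4.00 ± 2.05) and Pcdh1 (3.25 ± 2.09 FPKM), with Pcdh10 (0.00984 FPKM) and Pcdh11x (0.00899 FPKM) last. Pcdh10 and Pcdh11x, which were chosen by their fold changes, belonged to the least abundant members. Because of that choice, no relation between level and response is read from this. Part of the annotated exon length overlaps other genes, 14.6% for Pcdh7, 6.81% for Pcdh20, 4.56% for Pcdh10 and 3.29% for Pcdh17. The strand setting of the counting was not given, so reads from such stretches cannot be assigned with certainty.

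**Figure D1:**
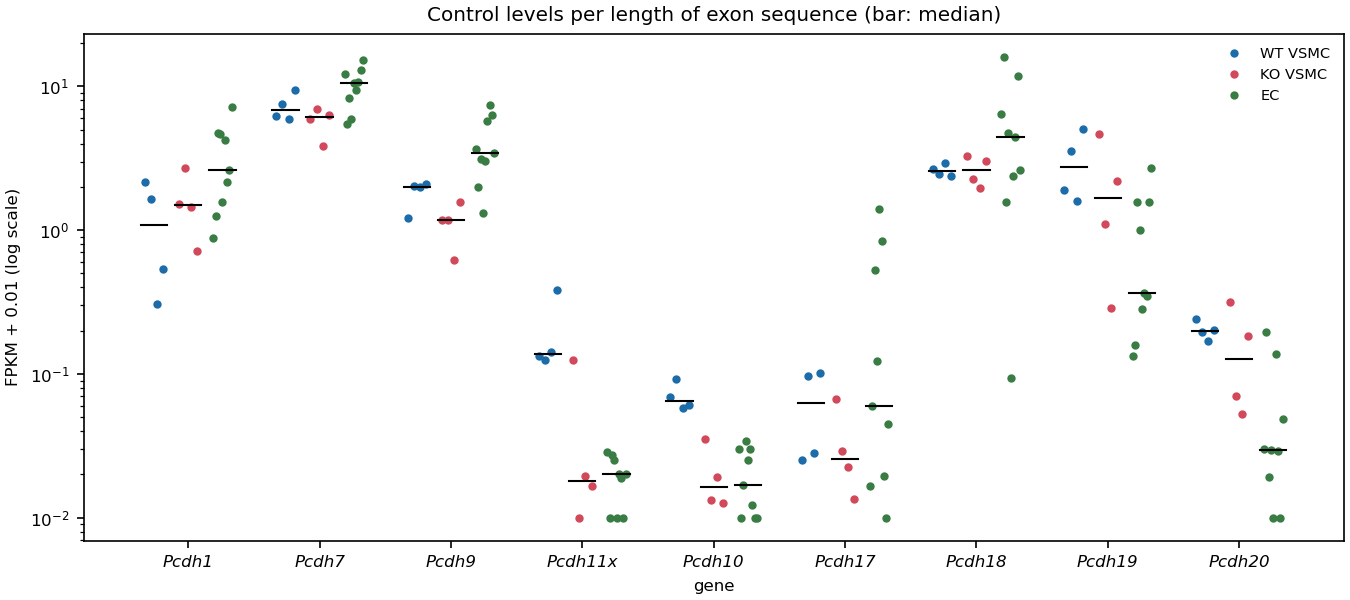
Levels of the 9 members in Control libraries of WT VSMC (n = 4), KO VSMC (n = 4) and EC (9 libraries of 8 animals), as FPKM + 0.01 on a log scale, with 1 point per library and a black bar at the median. Pcdh7 lies highest in all 3 cell types, while Pcdh10, Pcdh11x, Pcdh17 and Pcdh20 lie lowest.

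Pcdh10 (ENSMUSG00000049100, chromosome 3, 45332833 to 45390058, GRCm39), a δ2 protocadherin, was scarcely expressed in WT VSMC at rest and rose with the metabolic stressors. Its Control levels in sets 1 to 4 were 1.03, 1.43, 0.843 and 0.890 FPM, and with HG + FFA they were 8.59, 4.56, 4.47 and 1.98 FPM. Every set rose, and the lowest library with HG + FFA lay above the highest Control library. The log2FC was 2.14 (SE 0.26), with an adjusted p of 0.00118 by edgeR's quasi-likelihood test with Benjamini-Hochberg adjustment and of 4.13e-11 by DESeq2. A gene was called differentially expressed (DEG) where both tests gave an adjusted p under 0.05, |log2FC| reached 0.64 and 1 of the groups averaged at least 3 FPM. Pcdh10 kept this call when any 1 of the 4 sets was left out. Its mean reached 3 FPM only with HG + FFA (4.90 FPM, against 1.05 FPM in Control). These fits share the Control libraries by which Pcdh10 was chosen, so neither the p-values nor the kept call are independent support. The size of the rise differed between animals, with set 1 the highest and set 4 the lowest. Under AII + NA the levels were 1.94, 1.85, 0.959 and 0.683 FPM, which overlapped the Control libraries, and the log2FC of 0.31 (SE 0.29, adjusted p = 0.792 by edgeR) did not pass the test.

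Pcdh11x (ENSMUSG00000034755, chromosome X, 119199956 to 119820316), a δ1 protocadherin of the X chromosome, also rose with the metabolic stressors. Control libraries of sets 1 to 4 held 1.71, 1.60, 1.82 and 5.20 FPM, and HG + FFA libraries held 8.62, 5.13, 4.28 and 7.25 FPM. Set 4 started from a higher level than the other 3 sets, and therefore the groups overlapped although each set rose. The log2FC was 1.38 (SE 0.26, adjusted p = 0.0229 by edgeR and 0.000114 by DESeq2). The call was lost without set 1 (adjusted p = 0.128), set 2 (0.0872) or set 3 (0.207) by edgeR, and kept without set 4 (log2FC 1.74). As for Pcdh10, these fits share the Control libraries of the choice and are no independent support. With AII + NA, 1.39, 1.64, 0.866 and 3.34 FPM were measured, lower than Control in 3 of 4 sets, and the log2FC of -0.50 (SE 0.28, adjusted p = 0.635 by edgeR) did not pass.

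Pcdh9 (ENSMUSG00000055421, chromosome 14, 93250846 to 94128152), another δ1 member with a far higher resting level, was the third protocadherin to rise with HG + FFA. Control sets 1 to 4 had 11.1, 18.6, 18.4 and 19.2 FPM and HG + FFA sets 19.3, 27.1, 34.1 and 26.0 FPM, so that the groups did not overlap. The log2FC of 0.67 (SE 0.14) was close to the 0.64 needed for a call, with adjusted p = 0.0420 by edgeR and 0.00210 by DESeq2. Without set 1, 3 or 4 the adjusted p by edgeR was 0.227, 0.260 and 0.0699, and the call was kept only without set 2. With AII + NA the levels were 12.2, 21.5, 13.7 and 15.8 FPM (log2FC -0.08, SE 0.14, adjusted p = 0.902 by edgeR).

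Pcdh7 (ENSMUSG00000029108, chromosome 5, 57875004 to 58290581), the most abundant of the 9 members in these cells, changed less. Its Control levels were 107, 131, 103 and 163 FPM and those with HG + FFA 145, 167, 164 and 168 FPM, higher in each of the 4 sets. The log2FC of 0.37 (SE 0.09) lay under the fold threshold, and the adjusted p was 0.0829 by edgeR and 0.0139 by DESeq2. Thus 3 of the 9 members were DEG with HG + FFA, all higher, against 0.284% of the 16905 genes tested in either direction and 0.183% higher. At an unadjusted p under 0.05 by edgeR there were 4 members. These tests share the Control libraries with the comparison from which Pcdh10 and Pcdh11x were chosen and are not independent of it. ALL also contains the HG + FFA stressors, so the choice favored calls of these genes here. The count of 3 is therefore no result about the family, and among the members added as family only Pcdh9 was called. The smooth muscle marker sum had a mean log2 change of -0.20 with HG + FFA in WT VSMC, and the corresponding changes were -0.08 for fibroblast markers and -0.25 for 8 markers of glia and neurons (48.6 to 105 FPM in sum over WT VSMC, 4 of the 8 with a median under 1 FPM, none at 0 in all libraries). Endothelial (-0.16), pericyte (-0.31), leukocyte (-0.12) and cardiomyocyte (-0.12) markers also had negative means. The sum of 4 mesothelial markers, 2.20 to 6.49 FPM in WT VSMC and mostly Upk3b, with Wt1 and Lrrn4 at a median of 0, was higher with HG + FFA in each set (mean log2 change 0.28) and with ALL (0.53), and had a mean change of -0.06 with AII + NA. The part of these marker changes in the result was not tested.

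**Figure D2:**
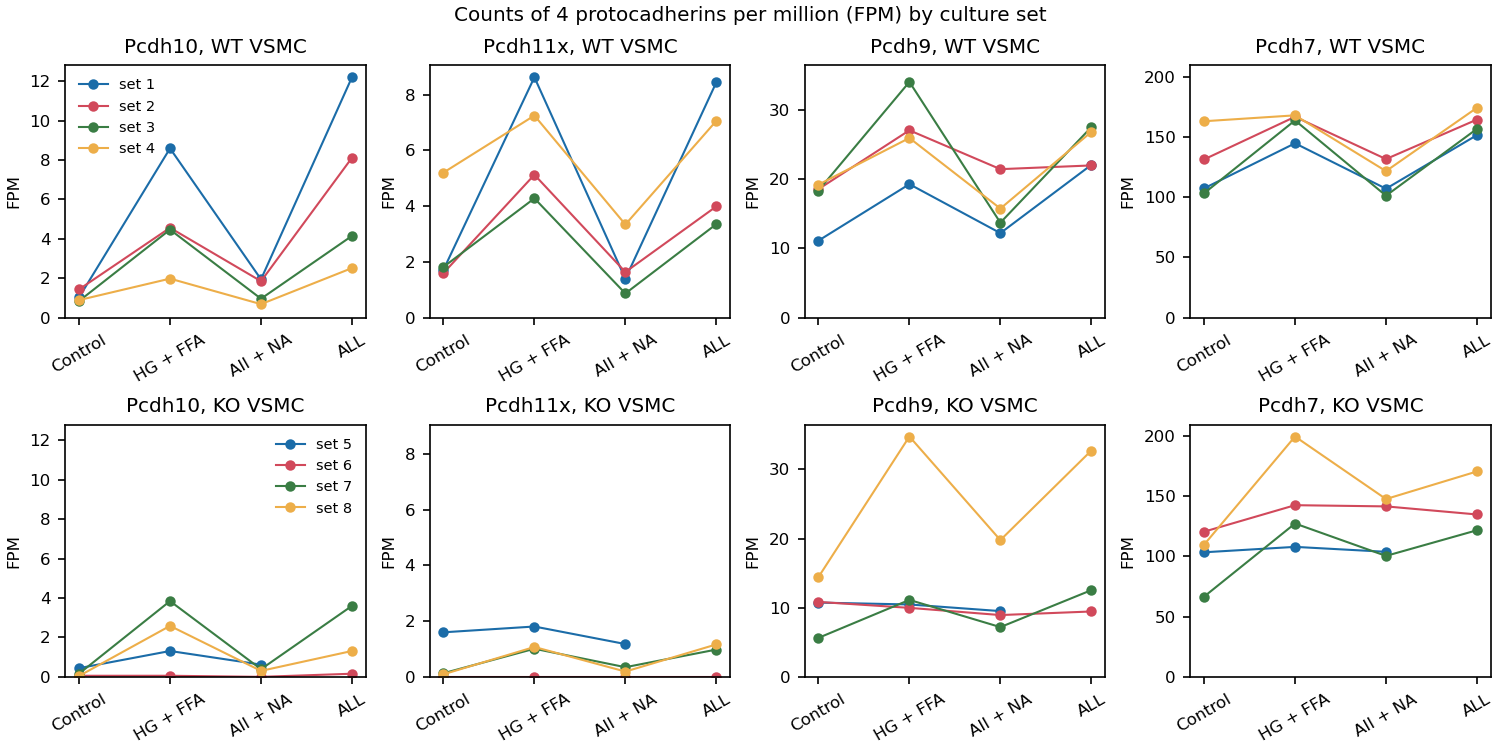
Levels of Pcdh10, Pcdh11x, Pcdh9 and Pcdh7 in FPM (linear axis from 0) by condition in WT VSMC (top) and KO VSMC (bottom), where each line joins the libraries of 1 set. Lines of Pcdh10 and Pcdh11x in WT VSMC go up from Control to HG + FFA in all 4 sets, to 1.98 to 8.59 FPM and 4.28 to 8.62 FPM.

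Among the remaining members of WT VSMC there was no DEG with HG + FFA. Pcdh1, a δ1 protocadherin of epithelia and airways, split by animal, with set means of 20.4 and 17.2 FPM in sets 1 and 2 and 3.38 and 4.83 FPM in sets 3 and 4 over the conditions (log2FC with HG + FFA 0.27, SE 0.13, adjusted p = 0.479 by edgeR). Pcdh19, a δ2 gene of the X chromosome, had Control levels of 20.1, 37.3, 16.6 and 53.5 FPM and HG + FFA levels of 26.3, 46.6, 15.8 and 48.2 FPM. Pcdh18 held 12.8 to 15.96 FPM in Control and 10.2 to 18.8 FPM with HG + FFA. Pcdh20 and Pcdh17, at 2.05 to 2.97 and 0.200 to 1.198 FPM in Control, had a log2FC of -0.09 (SE 0.27) and 0.26 (SE 0.47). None of these 5 members passed the test. With AII + NA none of the 9 members was a DEG by edgeR and DESeq2, against 0.0414% of all genes tested. Only Pcdh19 had an unadjusted p under 0.05, with 21.0, 34.4, 11.1 and 31.5 FPM in sets 1 to 4 (log2FC -0.36, SE 0.13, adjusted p = 0.355 by edgeR).

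The HG + FFA and AII + NA libraries were also compared with each other, a comparison added after the data had been seen. The fold changes set these 2 conditions against each other, but the fit still shares its estimates of spread and set effects with the Control and ALL libraries, those that chose the genes included. Pcdh10 was higher with HG + FFA (log2FC 1.83, SE 0.25, adjusted p = 0.00220 by edgeR and 1.37e-08 by DESeq2), and the groups did not overlap. Pcdh11x was higher by a similar amount (log2FC 1.88, SE 0.27, adjusted p = 0.00261 and 8.59e-09), again without overlap. Both calls held when any single set was left out. Pcdh9 was higher as well (log2FC 0.75, SE 0.14, adjusted p = 0.0130 and 0.000159), although the groups overlapped, and its call was lost without set 3 (0.56, adjusted p = 0.124 by edgeR) or set 4 (0.74, adjusted p = 0.0732). Pcdh7 passed both tests but not the fold threshold (log2FC 0.48, SE 0.09, adjusted p = 0.0111 by edgeR), and its groups did not overlap. Together 3 of 9 members were DEG, all higher with HG + FFA, against 0.84% of all genes and 0.385% in this direction. Pcdh10 and Pcdh11x are among them, and ALL, by which they were chosen, contains the HG + FFA stressors. The mean log2 difference of the smooth muscle marker sum from Control was 1.10 under AII + NA and -0.20 under HG + FFA, and that of the glia and neuron sum was 0.46 and -0.25. Whether these changes bear on the members was not tested.

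Under ALL, which chose the leading genes and is given without a test, Pcdh10 held 12.2, 8.11, 4.15 and 2.51 FPM in sets 1 to 4 and Pcdh11x 8.44, 3.99, 3.35 and 7.06 FPM. Their log2FC against Control were 2.54 (SE 0.26) and 1.20 (SE 0.26), and these 2 of the 9 members met the rule for a DEG, as did 2.13% of all genes, a count that the choice of genes fixed. Pcdh9 lay just outside it with a log2FC of 0.58 (22.1, 22.0, 27.6 and 26.9 FPM), and Pcdh7 had 0.37 (152, 164, 157 and 174 FPM). Lower than in Control were Pcdh19 (-0.47), Pcdh18 (-0.39), Pcdh20 (-0.35) and Pcdh17 (-0.12). Set against HG + FFA within each set, ALL differed by a mean log2 of 0.39 ± 0.38 (SD, n = 4) for Pcdh10, higher in 3 of 4 sets. The same difference was -0.19 ± 0.18 for Pcdh11x and -0.58 ± 0.31 for Pcdh19, lower in each of the 4 sets, and 0.01 ± 0.06 for Pcdh7. In Pcdh10, Pcdh11x, Pcdh9 and Pcdh7 the levels under ALL thus resembled those with HG + FFA more than those with AII + NA.

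**Figure D3:**
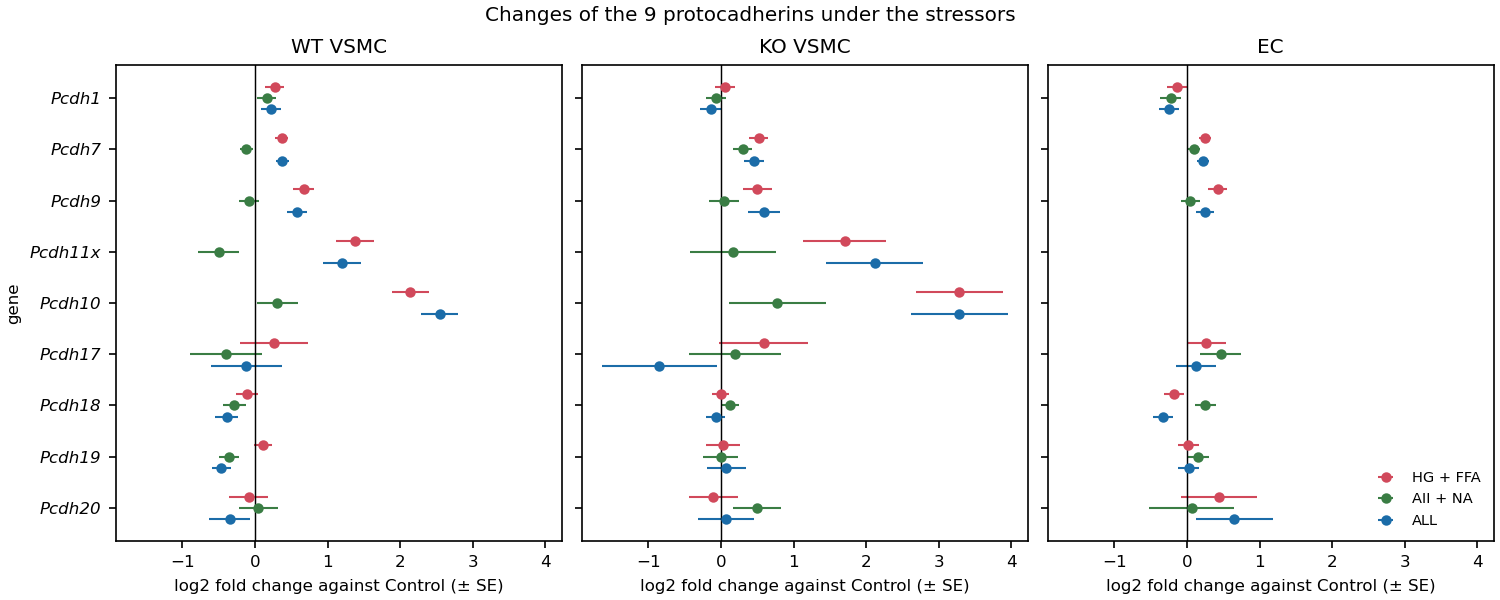
Fitted log2 fold changes of the members against Control, in a panel for each of the 3 cell types, with a color for each stressor condition and bars of 1 SE. In WT VSMC Pcdh10 stands at 2.14 with HG + FFA and 0.31 with AII + NA, and the ALL values of WT VSMC chose the members and carry no test.

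In KO VSMC Pcdh10 was close to absent at rest, and its level with HG + FFA varied strongly between animals. Control libraries of sets 5 to 8 held 13, 2, 5 and 1 counts, or 0.442, 0.0559, 0.163 and 0.0463 FPM. With HG + FFA the counts were 40, 2, 122 and 70, or 1.31, 0.0561, 3.85 and 2.59 FPM. Sets 5, 7 and 8 were higher with HG + FFA, while set 6 stayed at 2 counts in both libraries. The fitted log2FC was 3.29 (SE 0.60, adjusted p = 0.0213 by edgeR and 0.000145 by DESeq2), but with a group mean of 1.95 FPM the gene did not reach the 3 FPM required for a DEG. Without set 5 the log2FC was 4.26 (adjusted p = 0.00506 by edgeR, none given by DESeq2), and without set 6, 7 or 8 the adjusted p was 0.112, 0.735 and 0.125. With ALL, sets 6 to 8 held 5, 92 and 35 counts, or 0.159, 3.60 and 1.31 FPM (log2FC 3.29, SE 0.66, adjusted p = 0.0438 by edgeR and 0.000904 by DESeq2, largest group mean 1.69 FPM). Leaving out set 5, 6, 7 or 8 gave 3.97, 3.42, 2.55 and 3.24, with adjusted p of 0.00974, 0.158, 0.995 and 0.121 by edgeR. With AII + NA the levels were 0.621, 0, 0.390 and 0.304 FPM (log2FC 0.78, SE 0.67, adjusted p = 0.633 by edgeR).

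Pcdh11x was not detected in KO set 6, where all 4 libraries had no count, which allows up to 0.0838 to 0.102 FPM. Sets 5, 7 and 8 held 1.60, 0.130 and 0.0925 FPM in Control and 1.81, 1.01 and 1.07 FPM with HG + FFA. The log2FC of 1.70 (SE 0.58, adjusted p = 0.298 by edgeR) did not pass with all sets, and without set 5 it was 3.10 (adjusted p = 0.0268 by edgeR, none given by DESeq2). Pcdh7 held 103, 121, 66.6 and 110 FPM in Control and 108, 143, 127 and 200 FPM with HG + FFA, higher in each set (log2FC 0.52, SE 0.13, adjusted p = 0.112 by edgeR and 0.0126 by DESeq2). Without set 5, Pcdh7 met the rule for a DEG (0.67, adjusted p = 0.0141 by edgeR and 0.000102 by DESeq2). Calls over all genes also rose in that fit, to 293 of 16821 genes from 50 of 17538, so the gain was not particular to Pcdh7. Pcdh9 held 10.7, 10.8, 5.64 and 14.4 FPM in Control and 10.5, 9.98, 11.1 and 34.8 FPM with HG + FFA. Sets 7 and 8 were higher and sets 5 and 6 slightly lower, and the log2FC of 0.50 (SE 0.20, adjusted p = 0.343 by edgeR) did not pass. With all sets, 0 of 9 members were DEG with HG + FFA (4 at an unadjusted p under 0.05), against 0.285% of 17538 genes. The counts were 0 of 9 with AII + NA (1 at an unadjusted p under 0.05), where no gene was called, and 0 of 9 with ALL (4 at an unadjusted p under 0.05), against 0.314%, each by edgeR and DESeq2 together. The added comparison of HG + FFA with AII + NA also gave 0 of 9 (3 at an unadjusted p under 0.05), against 0.336% of all genes, with a log2FC for Pcdh10 of 2.51 (SE 0.55, adjusted p = 0.0526 by edgeR and 0.00170 by DESeq2). The mesothelial marker sum, 5.41 to 82.0 FPM in KO VSMC, had a mean log2 change of 0.52 with HG + FFA, 0.05 with AII + NA and 0.75 with ALL, and its part in these values was not tested.

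A response that passed in WT VSMC and not in KO VSMC is not a difference between them, so the difference itself was fitted. Its WT part uses the Control libraries by which Pcdh10 and Pcdh11x were chosen. For these genes the tests of the difference are therefore not independent of that choice. With HG + FFA the WT minus KO difference of the log2FC was -1.17 (SE 0.62) for Pcdh10, -0.05 (SE 0.45) for Pcdh11x, 0.17 (SE 0.26) for Pcdh9 and -0.15 (SE 0.16) for Pcdh7. None of the 9 differed by edgeR and DESeq2, also at an unadjusted p under 0.05 by edgeR, and the adjusted p was 1 for each of them. Of 18339 genes none was called. For AII + NA, 0 of 9 were called, and 1, Pcdh7, had an unadjusted p under 0.05 (-0.41, SE 0.16, adjusted p = 0.395 by edgeR). With ALL, given without a test, the difference was -0.70 (SE 0.66) for Pcdh10 and -0.68 (SE 0.64) for Pcdh11x. The fitted log2FC of Pcdh10 and Pcdh11x were thus larger in KO VSMC, by less than 2 SE. They start from KO Control libraries of 1 to 13 counts for Pcdh10 and 0 to 47 counts for Pcdh11x. The mean levels with HG + FFA were 1.95 and 0.972 FPM in KO VSMC, against 4.90 and 6.32 FPM in WT VSMC. Without KO set 5, 0 of 9 members and 0 of 18164 genes were called for a difference with HG + FFA, and likewise with AII + NA.

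At rest, KO VSMC held less Pcdh10 than WT VSMC in each library, since the highest KO library (0.442 FPM) lay below the lowest WT library (0.843 FPM). The log2FC of KO against WT was -2.57 (SE 0.64, adjusted p = 0.299 by edgeR and 0.00783 by DESeq2). For Pcdh11x it was -2.53 (SE 1.12, adjusted p = 0.409 by edgeR), with KO set 5 at 1.60 FPM in the range of WT VSMC. Pcdh9 had -0.73 (SE 0.30, adjusted p = 0.408 by edgeR). The WT Control libraries used here also entered the choice of Pcdh10 and Pcdh11x, so the tests of these 2 genes are not independent of it. Of the 8 members that passed the filter on low counts, 0 were DEG (3 at an unadjusted p under 0.05), against 0.00622% of 16089 genes. Without KO set 5 the values were -3.53 for Pcdh10 (adjusted p = 0.0271 by edgeR) and -5.16 for Pcdh11x (adjusted p = 0.0338), both under the 3 FPM required. Pcdh19 and Pcdh20 varied strongly among KO animals, with 49.1, 11.6, 2.93 and 23.3 FPM and 3.94, 0.782, 0.554 and 2.22 FPM in Control sets 5 to 8. In both genes sets 5 and 8 were high and sets 6 and 7 low. The fibroblast marker sum also differed between genotypes, with 1227 to 6165 FPM in KO VSMC against 3734 to 10730 FPM in WT VSMC, and its part in these differences was not tested. No animal gave VSMC of both genotypes, so genotype and animal cannot be told apart beyond the spread between sets.

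In EC, Pcdh10 and Pcdh11x were close to absent. Over the 9 Control libraries Pcdh10 ranged from 0 to 0.425 FPM with a median of 0.120 FPM, and Pcdh11x from 0 to 0.261 FPM with a median of 0.141 FPM. Both had no count in 3 of the 9 libraries. Under any condition the highest library reached 1.42 FPM (39 counts) for Pcdh10 and 1.26 FPM (22 counts) for Pcdh11x. Neither passed the filter on low counts, so 7 of the 9 members could be tested for the stressors in EC.

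The abundant members were little changed by the stressors in EC. Pcdh9 ranged from 12.03 to 68.1 FPM in Control (median 31.6) and from 15.6 to 85.5 FPM with HG + FFA (median 50.9). It was higher in 6 of the 9 sets with both libraries, with a log2FC of 0.43 (SE 0.13, adjusted p = 0.0601 by edgeR and 0.0264 by DESeq2). Pcdh7 ranged from 95.4 to 266 FPM in Control (median 184) and from 116 to 287 FPM with HG + FFA (median 205), higher in 7 of 9 sets (log2FC 0.25, SE 0.08, adjusted p = 0.0994 by edgeR). These values pointed the same way as in WT VSMC, but none of the 7 members tested was a DEG with HG + FFA (2 at an unadjusted p under 0.05 by edgeR), against 0.647% of 17148 genes. With AII + NA 0 of 7 were called and none had an unadjusted p under 0.05 by edgeR, and no gene was called. With ALL 0 of 7 were called (2 at an unadjusted p under 0.05), against 0.641%, and Pcdh18 had the value farthest below Control among them (log2FC -0.33, SE 0.14, adjusted p = 0.224 by edgeR, lower in 8 of 9 sets). Between HG + FFA and AII + NA, Pcdh9 differed by 0.38 (SE 0.13, adjusted p = 0.147 by edgeR) and Pcdh18 by -0.43 (SE 0.14, adjusted p = 0.115), and 0 of 7 were called (2 at an unadjusted p under 0.05), against 0.443%.

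Against WT VSMC at rest, the members with the most negative log2FC in EC were Pcdh11x and Pcdh10. Both were chosen by fold changes against these WT Control libraries, so their tests and rank here are not independent of that choice. The log2FC of EC against WT VSMC was -4.45 for Pcdh11x (SE 0.79, adjusted p = 0.00505 by edgeR and 3.62e-08 by DESeq2), but its larger group mean of 2.69 FPM missed the 3 FPM required. The value for Pcdh10 was -2.66 (SE 0.85, adjusted p = 0.0550 by edgeR and 0.0124 by DESeq2). Pcdh20 (-2.145, SE 0.98, adjusted p = 0.157 by edgeR and 0.115 by DESeq2) and Pcdh19 (-1.86, SE 0.69, adjusted p = 0.0880 and 0.0481) followed. Pcdh9 (1.04, SE 0.40, adjusted p = 0.0966 by edgeR), Pcdh1 (1.39, SE 0.62, adjusted p = 0.145) and Pcdh17 (2.54, SE 1.52, adjusted p = 0.274) were higher in EC and did not pass. None of the 9 members was a DEG by both tools (6 at an unadjusted p under 0.05 by edgeR), against 9.33% of 17115 genes. The 9 EC libraries stand for 8 animals, so that the p-values treat sets 17 and 18 as independent. EC set 9 and WT set 1 came from the same animal, and the fit did not pair them. Without set 18, Pcdh19 was a DEG (-2.27, adjusted p = 0.0437 by edgeR), in a fit that called 1291 of 16869 genes. Pcdh11x was a DEG without WT set 1 or WT set 2, where 674 of 17643 and 580 of 17574 genes were called. Cell type, organ and batch, named B1 for VSMC and B2 for EC in the labels, cannot be told apart in this comparison.

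EC sets differed far more from each other in Pcdh17 and Pcdh18 than between conditions. Pcdh17, a δ2 protocadherin, had set means of 16.2, 11.9, 11.3 and 7.46 FPM in sets 14, 15, 10 and 12, and of 0.0778 to 2.15 FPM in the other 6 sets. The endothelial marker sum was 3570, 3075, 1962 and 4497 FPM in those 4 sets, but also 3794 FPM in set 18, where Pcdh17 was at 0.596 FPM. Across 9 animals (sets 17 and 18 averaged, log2 scale) Pearson's r between them was 0.59 (exact permutation p = 0.103, adjusted 0.424 over 27 relations) and Spearman's rho 0.617 (exact permutation p = 0.0857, adjusted 0.311), and r was 0.57 without the 2 animals farthest from the median. Pcdh18 ran from 0.661 FPM in set 14 to 94.9 FPM in set 11. With the fibroblast marker sum it gave r = 0.77 (exact permutation p = 0.00872, adjusted 0.118) and rho = 0.717 (exact permutation p = 0.0369, adjusted 0.292), and r = 0.669 without the 2 farthest animals. Pcdh9 and the smooth muscle marker sum gave r = -0.859 (exact permutation p = 0.00276, adjusted 0.0746) and rho = -0.80 (exact permutation p = 0.0138, adjusted 0.292), and r = -0.541 without the 2 farthest animals. None of the 27 relations passed after adjustment.

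**Figure D4:**
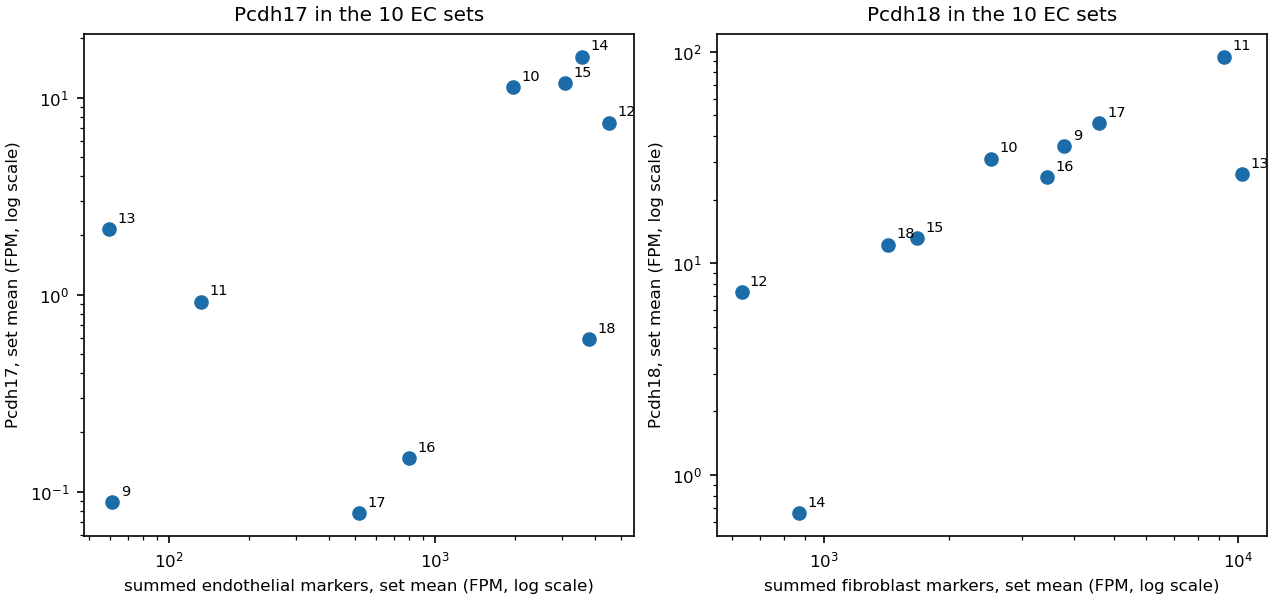
Set means of Pcdh17 against the summed endothelial markers (left) and of Pcdh18 against the summed fibroblast markers (right) in EC, in FPM on log scales, where each point is 1 of the 10 sets, labelled with its number. Sets 10, 12, 14 and 15 lie above 7 FPM of Pcdh17, and set 14 lies lowest for Pcdh18 at 0.661 FPM.

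The call of 3 members with HG + FFA in WT VSMC was set beside those of related genes. The member lists hold Pcdh10 and Pcdh11x, which were chosen by their fold changes with ALL, a condition that contains the HG + FFA stressors. Of the members added as family, only Pcdh9 was called. The lists are therefore not alike in how they were chosen, and no difference between families is read from them. The median log2FC of the 9 members was 0.27, with 0.52 for the δ1 group (2 of 4 DEG) and 0.19 for the δ2 group (1 of 4 DEG), against -0.0058 for all genes tested. Of the 59 clustered protocadherins, 43 were tested and none was a DEG (median 0.14, range -0.14 to 0.53). None was called among 14 tested of 23 classical and related cadherins (median -0.03), 5 tested of 9 FAT, Dachsous and Celsr cadherins (median 0.10), the 9 genes of the WAVE complex (median 0.05) and 6 tested of 7 catenins and tail partners (median -0.02), by edgeR and DESeq2 together. The log2FC was 0.08 for Cdh2 (N-cadherin), 0.17 for Cdh11 (OB-cadherin), -0.03 for Cdh5 (VE-cadherin of endothelium) and 0.13 for Nckap1 (a WAVE complex subunit bound by δ2 tails), with adjusted p by edgeR of 0.717, 0.500, 0.989 and 0.511. In the other stressor comparisons of the 3 cell types these lists gave 1 DEG, Cdh5, lower in WT VSMC with ALL (log2FC -1.17, SE 0.25, adjusted p = 0.00994 by edgeR), a gene whose level in WT VSMC ran from 0.0309 to 22.8 FPM. Between EC and WT VSMC at rest, Cdh5 (5.69), Cdh13 (3.56), Cdh2 (1.35) and Pcdhb19 (1.08) were higher and Cdh18 (-4.09) and Pcdhgc4 (-1.12) lower as DEG, and Pcdh12, the endothelial protocadherin, had a log2FC of 2.41 (adjusted p = 0.165 by edgeR).

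Across the 16 WT VSMC libraries, the genes whose pattern was most like that of Pcdh10 were sought among 11966 genes by Pearson's r of log2 levels centered within each set. This is a description without a test, since these libraries share sets and conditions and include those that chose the genes. The 5 closest to Pcdh10 were Pdk4 (0.973), which restrains pyruvate oxidation, Tgm2 (0.966), a transglutaminase, Dhrs3 (0.965), a retinal reductase, Gria4 (0.965), an AMPA receptor subunit, and Kansl2 (0.960). The 4 closest to Pcdh11x were Gria4 (0.968), Lipe (0.966), the hormone-sensitive lipase, Gabre (0.963), a GABA-A receptor subunit, and Slc25a42 (0.962), a mitochondrial coenzyme A carrier. Pcdh10 and Pcdh11x gave r = 0.912 with each other, rank 34 of the genes closest to Pcdh10 and rank 24 of those closest to Pcdh11x. Pcdh7 (0.910) and Pcdh9 (0.879) were also close to Pcdh10, and Pcdh9 (0.908) and Pcdh7 (0.905) to Pcdh11x.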

How the data were processed

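Poly(A) RNA was sequenced in 69 libraries. The authors aligned the reads to mm39 and assigned them to Ensembl genes, and the deposited values are raw counts per gene and library, not normalized and not pooled. The submitters' processing notes name HISAT2 2.1.0 and featureCounts. Reads with several alignments were counted over exons, and the strand setting is not given in the sources used here.

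From these counts, FPM (TMM scaling within a cell type, or within the compared groups) and FPKM were computed. Whole tables were fitted with edgeR 4.0.16 (quasi-likelihood test, filterByExpr, Benjamini-Hochberg adjustment) and DESeq2 1.42.0 (Wald test) in R 4.3.3, with the set as a block within a cell type. A DEG needed an adjusted p under 0.05 in both, |log2FC| of at least 0.64, a group mean of at least 3 FPM and a protein-coding or lncRNA gene. Rows without annotation (643 of 56953) held 0.0241% of counts and stayed out of the tests. The scripts were tested on simulated data. Libraries of a set come from 1 animal and passage, and their deviations from the group means correlated at a mean r of 0.712, 0.677 and 0.728 in WT VSMC, KO VSMC and EC (lowest 0.442), against -0.253, -0.255 and -0.0854 between sets, so the sets pair the libraries. No 2 libraries of a group agreed within sampling noise. Log2 values shown outside the fits use a pseudocount of 0.1 FPM.

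The members, gene lists and tests were chosen with earlier results of these data known. Named were all 9 members, genes of the lists that met the rule for a DEG (at most 4 per list), Cdh2, Cdh5, Cdh11, Pcdh12 and Nckap1 in any case, and the 5 genes most like Pcdh10 and Pcdh11x in WT VSMC, of which 1 is not reported here. Alternatives were either tool alone, no block, an animal block in EC, other scaling and count filters, and leaving out each set. Promoters came from RefSeq (GRCm38.p6), which matched 7 of the 9 members.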

Additional observations from a re-analysis of the deposited data

Results flagged for a closer look

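In groups of 4 to 10 libraries, the members' log2 levels were examined for 1 library far from the others of its condition by Dixon's test at the 95% level, and 8 of 99 groups held one, where chance gives about 1 in 20. In WT VSMC, Pcdh11x stood at 5.20 FPM in Control of set 4 (other sets 1.60 to 1.82), Pcdh9 at 11.1 FPM in Control of set 1 (18.4 to 19.2), Pcdh18 at 7.65 FPM with AII + NA in set 4 (12.8 to 13.4) and Pcdh7 at 145 FPM with HG + FFA in set 1 (164 to 168). In KO VSMC, Pcdh9 stood at 34.8 FPM with HG + FFA in set 8 (9.98 to 11.1). In EC, Pcdh18 stood at 0.457 FPM in Control (8.43 to 87.3) and at 0.379 FPM with ALL (5.68 to 99.3) in set 14, and Pcdh7 at 116 FPM with HG + FFA in set 11 (183 to 287). No member moved one way in every set of a cell type and the opposite way in every set of another.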

How the results depend on the processing

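Of 168 counts of called members under the alternatives, 155 stayed within 1.5 times the value reported and 13 did not. Of 425 fitted log2FC of single members, 403 counted as unchanged, 14 no longer passed, 8 newly passed and 0 reversed. Unchanged meant the same direction and the same side of the threshold, except for values of ALL in WT VSMC. There it meant a shift smaller than the SD of the set ratios, whatever became of the call. Both totals include ALL, and the second is no count of calls kept. With HG + FFA in WT VSMC, 3 members were called. Leaving out 1 set gave 1 to 2, and the fit without the replicate block, which sets aside the pairing by animal, gave 0 (Pcdh10 2.22, Pcdh11x 1.29 and Pcdh9 0.66, adjusted p = 1 by edgeR). With ALL, the condition that chose the genes, the corresponding counts are a description from which no stability is read, namely 2 as reported, 5 by edgeR's adjusted p alone, 0 without the block and 2 to 3 without 1 set. For HG + FFA against AII + NA in WT VSMC, added after the data had been seen, 3 became 0 without the block and 2 to 3 without 1 set. In KO VSMC, where 0 were called, edgeR's adjusted p alone gave 1 (Pcdh10) with HG + FFA and 1 with ALL, and leaving out 1 set gave 0 to 1 with HG + FFA (Pcdh7 without set 5). For EC against WT VSMC, 0 became 1 with DESeq2 alone (Pcdh19), which called 2309 of 17115 genes, and 0 to 1 without 1 set. The block changed no other count of called members.

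Counts of DEG over all genes depended on the processing in both directions. In WT VSMC the 48 with HG + FFA became 91 by edgeR's adjusted p alone, 0 without the block, 21 without set 1 and 19 without set 3. The 7 with AII + NA became 61 with DESeq2 alone, 56 without a filter on low counts, 0 without the block and 0 to 13 without 1 set. The 360 with ALL became 1259 by edgeR's adjusted p alone and 0 without the block. The 142 between HG + FFA and AII + NA became 415 and 0 in these fits, 84 without set 3 and 63 without set 4. In KO VSMC the 50 with HG + FFA became 87 with DESeq2 alone, 85 without the filter, 77 by edgeR's adjusted p alone, 0 without the block and 293, 5, 0 and 30 without set 5, 6, 7 and 8. The 0 with AII + NA became 13 with DESeq2 alone and 13 without the filter. The 55 with ALL became 130 with DESeq2 alone, 130 without the filter, 0 without the block and 124, 2, 0 and 34 without set 5, 6, 7 and 8. The 59 between HG + FFA and AII + NA became 106 with DESeq2 alone, 106 without the filter, 94 by edgeR's adjusted p alone, 0 without the block, 9 without set 6 and 2 without set 7. In EC the 111 with HG + FFA, 110 with ALL and 76 between HG + FFA and AII + NA became 605, 546 and 354 by edgeR's adjusted p alone, 49, 44 and 37 with the animal as block and 2 each without a block. The 0 genes whose AII + NA effect differed between genotypes became 2 with DESeq2 alone and 2 without the filter. The 1 gene of KO against WT became 275 with DESeq2 alone, 10 without the filter, 348 without set 5 and 0 to 3 without 1 of the other sets. The 1596 of EC against WT became 2309 with DESeq2 alone, 1226 without the filter, 1291 without EC set 18 and 580 to 756 without 1 WT set. The cause of these shifts was not tested. Depth limits Pcdh17 in each cell type, Pcdh10 and Pcdh11x in KO VSMC and EC, and Pcdh20 in EC, where some libraries held fewer than 3 counts.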
